A study of Mus musculus with 10 samples.

Results

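The comparison set livers of mice given siRNA against Rab5 beside livers of mice given a control siRNA, across every probe set of the array. Its members were the 4 arrays titled Rab5all siRNA and the 4 titled control siRNA, 8 of the 10 arrays in the series, and the 45037 probe sets left of 45101 after 64 manufacturer control probe sets were set aside. The animals were male mice of the strain C57BL/6 NHsd, which carried no genetic change that the labels name. Both siRNAs were packed in lipid nanoparticles and given by tail vein at 1.5 mg/kg, and liver was taken on day 5. Sample titles call the control RNA scrambled and non-target, while the design text names luciferase, so it is written control siRNA below. The other 2 arrays came from mice given PBS alone, without nanoparticles. They helped to estimate the spread and gave a further value for named genes. They also entered the mean signals that chose each gene's brightest probe set, the signal thresholds and the principal components. The labels give neither the ages of the mice nor whether each array had a mouse of its own, so every p-value reflects only how far these samples differ, which may be technical. The siRNA sequences were not used here. A nanoparticle given by vein reaches hepatocytes and also other cells of the liver, and the labels do not say which cells took it up.

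Rab5a, Rab5b and Rab5c are small GTPases of the early endosome. In the GTP-bound form they recruit tethers, a phosphoinositide kinase and fusion proteins, so that incoming vesicles fuse with one another and cargo is sorted to recycling or to lysosomes. In liver this route carries receptors for lipoproteins, hormones, growth factors and glycoproteins. Genes of that route, of lipid, glucose, bile acid and drug metabolism, of the cell cycle and of stress are the lists a reader would look at first, and are called the usual lists below. The account that follows gives the rest of the array.

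Values are log2 signals after robust multi-array average (RMA), so a difference of 1 is 2-fold, and all differences are Rab5 siRNA minus control siRNA. The table's median was 4.33 and its 75th percentile 6.08. Array medians ran from 4.29 to 4.37. RMA equalises the arrays, so a shift shared by all transcripts of a liver would not be seen, and differences of dim probe sets are compressed. The first principal component held 47.39% of the variance and placed the 4 Rab5 siRNA arrays between 24.1 and 52.9 and all other arrays between -35.5 and -21.3. Rab5 siRNA 1 lay nearest to the controls, and the probe sets called up were raised in it by a median of 0.49, against 0.66 to 0.74 in the other 3 arrays. The arrays numbered 2 of both siRNA groups showed the widest gap between the 3' and 5' probe sets of Gapdh, a measure of RNA integrity, at 2.86 and 2.67 against 2.15 to 2.58 elsewhere. The same gap for actin was 2.59 to 2.75 in the Rab5 siRNA arrays and 2.84 to 3.23 in the control siRNA arrays. With PBS it was 2.83 and 3.13. The actin gap was thus smaller in every Rab5 siRNA array than in any other array, and its part in the differences was not tested. Of 12 Kupffer cell and macrophage markers 7 rose (Cd5l, Marco, Timd4, Cd68, Mpeg1, C1qb and C1qc) and 0 fell. Their mean level was 8.37 to 8.73 in the control arrays and 8.79 to 9.36 in the Rab5 siRNA arrays, and 0 of the 12 lay below the table median. Hepatocyte markers had a mean of 12.26 to 12.44 in controls and 12 to 12.1 after Rab5 siRNA, and 3 of 10 fell (Apoa2, Tat and Cyp2e1). In whole liver, fewer cells of a type and less RNA per cell cannot be told apart.

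The targets come first as a check of the labels. Rab5c read 9.24, 9.16, 9.40 and 9.03 in the 4 control arrays and 7.36, 7.22, 7.28 and 6.99 in the 4 Rab5 siRNA arrays, a fall of 3.98-fold (difference -1.99, SE 0.111, limma adjusted p = 6.89e-08). Rab5a read 8.33, 8.81, 8.71 and 8.81 against 6.28, 7.10, 6.91 and 7.16 (difference -1.81, SE 0.171, limma adjusted p = 6.94e-06). Neither gene had a Rab5 siRNA array within the range of its controls. Rab5b lay near the table median, at 4.12 to 4.49 in controls and 3.85 to 4.39 after Rab5 siRNA, and its groups overlapped (difference -0.24, SE 0.126, limma adjusted p = 0.273), so a fall could not be told from the spread at this signal.

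Over all probe sets, 2798 rose (6.21%) and 2133 fell (4.74%), 10.9% in all, at an adjusted p under 0.05 (limma, Benjamini-Hochberg). A change of at least 2-fold was less common, with 546 probe sets higher (1.21%) and 291 lower (0.646%). Counted once per gene, by its brightest probe set over the 10 arrays, 1569 of 18193 genes rose (8.62%) and 1091 fell (6.0%), 14.6% together, and 325 (1.79%) and 170 (0.934%) passed 2-fold. For 13.1% of genes the call came with no overlap between the 4 control and 4 Rab5 siRNA values. Without Rab5 siRNA 1 the probe sets called were 3338 up and 2283 down, and without both arrays numbered 2 they were 1687 and 1247. The usual lists held 2322 of the genes and 28.6% of these were called, at a median level of 6.72. Outside them 1182 of 15871 genes rose and 813 fell (12.6%), at a median level of 5.21.

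**Figure D1:**
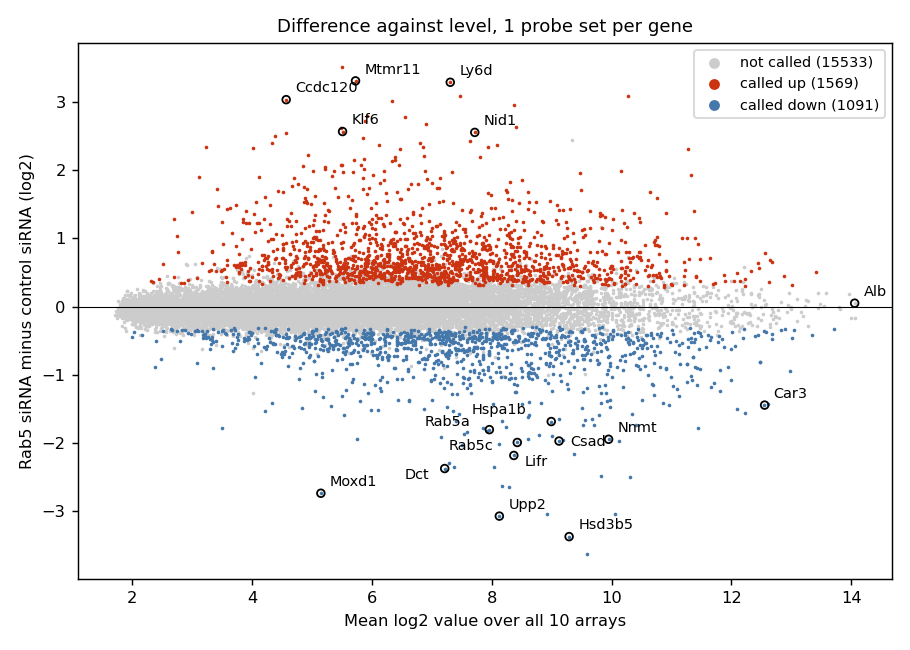
Difference between Rab5 siRNA and control siRNA (log2) against the mean log2 value over all 10 arrays, 1 point per gene (18193), coloured by call (1569 up, 1091 down). Called genes spread above and below 0 mainly among brighter probe sets, and dim genes gather near 0.

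The largest rises outside the usual lists joined proteins of membranes, matrix and signalling with proteins of chromosome division. Mtmr11, a member of the myotubularin family, which is built like lipid phosphatases that act on endosomal phosphoinositides, read 3.95, 4.41, 4.73 and 4.92 in controls and 7.61, 7.93, 7.91 and 7.80 after Rab5 siRNA, a rise of 9.91-fold (difference 3.31, SE 0.167, limma adjusted p = 3.58e-08). Ly6d, a small glycolipid-anchored surface protein, read 5.65, 6.26, 6.50 and 5.65 against 7.36, 9.69, 9.83 and 10.33 (difference 3.29, SE 0.456, limma adjusted p = 1.93e-04). Mtmr11 was much alike in its 4 Rab5 siRNA arrays, whereas Ly6d was over 2 units lower in Rab5 siRNA 1 than in the others, and without that array its difference was 3.94. Ccdc120, a coiled-coil protein, went from 3.63, 3.53, 3.33 and 3.13 to 6.08, 6.51, 6.6 and 6.56, a rise of 8.19-fold (SE 0.134 on the log2 scale, limma adjusted p = 2.94e-08). It and Afp, the fetal counterpart of albumin (4.02, 3.96, 4.00 and 4.29 against 6.33, 7.85, 7.90 and 8.23), were the 2 genes whose 4 control values all lay below the table median and whose 4 Rab5 siRNA values all lay above its 75th percentile. The opposite pattern was found for 0 genes.

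Several of these rises were proteins made for the cell surface or the space around cells. Smoc2, a secreted calcium-binding matrix protein, read 4.77, 5.07, 4.2 and 5.48 in controls and 6.47, 8.22, 8.13 and 7.89 after Rab5 siRNA. Nid1, the basement membrane linker nidogen, read 6.53, 6.78, 6.56 and 7.03 against 9.01, 9.28, 9.21 and 9.63. Cav2, which builds caveolae with caveolin 1, read 5.48, 6.01, 5.86 and 6.15 against 7.65, 8.42, 8.24 and 8.76. The rises were 6.94-fold, 5.87-fold and 5.25-fold, and no value of one group reached into the other. Spink1, a secreted trypsin inhibitor, read 3.88, 5.16, 4.69 and 4.48 against 5.58, 7.70, 7.25 and 8.16, with Rab5 siRNA 1 the closest to controls. Tnfrsf12a, the receptor of the cytokine TWEAK, read 6.91, 6.96, 7.22 and 6.89 against 9.30, 9.17, 9.45 and 8.84, and here the 4 Rab5 siRNA arrays differed little. Klf6, a zinc finger transcription factor switched on early after tissue injury, rose 5.92-fold (difference 2.57, SE 0.269, limma adjusted p = 1.71e-05), and all 4 of its other probe sets were called up too. D17H6S56E-5 rose by 3.09 (SE 0.204), the magnesium transporter gene Nipal1 by 2.14 (SE 0.200), Synpo, which binds actin, by 2.05 (SE 0.179) and Tmem71 by 2.01 (SE 0.290). Another Synpo probe set was not called (difference 0.19, limma adjusted p = 0.431).

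A second set among the 20 largest rises serves DNA copying and chromosome division although it stood in no usual list. Cdca8 (borealin, a subunit of the chromosomal passenger complex) read 5.99, 5.73, 6.04 and 4.95 in controls and 7.99, 8.05, 7.89 and 8.04 after Rab5 siRNA (difference 2.32, SE 0.184, limma adjusted p = 1.55e-06). Cdca5 (sororin, which keeps sister chromatids joined) read 4.76, 4.78, 5.05 and 4.67 against 6.76, 6.98, 7.04 and 6.78 (difference 2.08, SE 0.109, limma adjusted p = 5.27e-08). Both had 4 closely grouped Rab5 siRNA values, and the PBS arrays read 3.95 and 4.00 for Cdca5, below all its controls, and 4.92 and 5.03 for Cdca8, close to its lowest control. Pclaf, which binds the sliding clamp PCNA, rose by 2.07 (SE 0.169), Iqgap3, a scaffold of dividing cells, by 2.21 (SE 0.142), and Cdca3, a trigger of mitotic entry, by 2.21 (SE 0.228). Rbl1, the pocket protein p107, rose by 2.06 (SE 0.241), but 0 of its 3 other probe sets were called, nor were the 2 others of Cdca3. The other probe set of Iqgap3 was not called (difference 0.01, limma adjusted p = 0.976). Mybl1, the transcription factor A-Myb, read 2.98, 3.16, 3.32 and 3.01 against 3.68, 5.94, 5.72 and 6.41, so that its difference of 2.32 became 2.91 without Rab5 siRNA 1. That array was the nearest to controls in 16 of these 20 rises.

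The promoters of Cdca5 and Cdca8 are shown because genes of chromosome division often carry the cell cycle homology core TTTGAA close to the start site, at times with a CCAAT box, the site of nuclear factor Y. The windows run from 250 bases before to 30 after the RefSeq start in GRCm38.p6, in the direction of transcription. Capitals mark TTTGAA in Cdca5, at -17 and -9 from the start, and in Cdca8 TTTGAA at 14 and CCAAT, read as ATTGG, at -85, -51, -11 and 19, where the last overlaps TTTGAA. Cdca5 lies on the plus strand at chr19:6084847-6085126 and Cdca8 on the minus strand at chr4:124936888-124937167.
Cdca5: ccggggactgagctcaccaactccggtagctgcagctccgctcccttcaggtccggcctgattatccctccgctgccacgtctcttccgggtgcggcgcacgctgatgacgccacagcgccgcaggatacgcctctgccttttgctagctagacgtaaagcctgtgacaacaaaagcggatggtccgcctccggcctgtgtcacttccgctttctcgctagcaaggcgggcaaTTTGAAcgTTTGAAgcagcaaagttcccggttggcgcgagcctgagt
Cdca8: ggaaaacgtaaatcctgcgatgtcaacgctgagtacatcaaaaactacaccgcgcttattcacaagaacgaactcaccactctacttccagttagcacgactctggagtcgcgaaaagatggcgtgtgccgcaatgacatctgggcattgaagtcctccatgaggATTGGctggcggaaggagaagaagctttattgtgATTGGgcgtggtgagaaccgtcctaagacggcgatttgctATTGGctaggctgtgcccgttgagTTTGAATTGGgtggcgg

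The largest falls outside the usual lists included enzymes, a lipid carrier and a cytokine receptor. Upp2, a uridine phosphorylase of liver, read 9.44, 10.03, 9.07 and 9.16 in controls and 6.66, 6.75, 6.52 and 5.46 after Rab5 siRNA, an 8.42-fold fall (difference -3.07, SE 0.257, limma adjusted p = 2.30e-06). Csad, the enzyme that commits cysteine to taurine, read 9.88, 9.96, 10.01 and 9.97 against 8.60, 7.94, 7.90 and 7.48 (difference -1.97, SE 0.191, limma adjusted p = 8.37e-06). The control values of Csad were nearly equal, and its highest Rab5 siRNA value, 8.60 in Rab5 siRNA 1, lay far below them. Mfsd2a, the carrier of lysophosphatidylcholine, read 9.36, 8.71, 9.29 and 8.62 against 7.10, 5.73, 6.54 and 7.18. Lifr, the receptor subunit for leukaemia inhibitory factor, read 9.33, 9.34, 9.34 and 9.16 against 7.84, 6.74, 6.86 and 7.01. The falls were 5.12-fold and 4.55-fold, and for Lifr the Rab5 siRNA 1 value was again the nearest to controls. A second bright Lifr probe set fell less, from 8.44 to 7.84 (group means, difference -0.60, SE 0.154). A dim Lifr probe set was not called (difference -0.32, limma adjusted p = 0.192). Ppm1k, the mitochondrial phosphatase that activates branched-chain keto acid dehydrogenase, read 8.41, 8.65, 8.26 and 8.66 against 6.59, 6.88, 6.42 and 6.97 (difference -1.78, SE 0.133, limma adjusted p = 8.88e-07).

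Further falls lay in amine, phospholipid, retinoid and chloride handling. Abat, which degrades the transmitter GABA, fell by 1.59 (SE 0.122), and Etnppl, a phosphoethanolamine lyase, by 2.02 (SE 0.173). Of phospholipid enzymes, Gpcpd1, which splits glycerophosphocholine, fell by 2.03 (SE 0.199) and Chpt1, the last step of phosphatidylcholine synthesis, by 1.66 (SE 0.108), with all 3 other probe sets called down for each. Retsat, which saturates retinol, fell by 1.74 (SE 0.234), the chloride channel gene Clcn2 by 1.60 (SE 0.152), Macrod1, which removes ADP-ribose from proteins, by 1.83 (SE 0.164), and Gas1, a membrane-anchored partner of Hedgehog, by 1.91 (SE 0.152). Dct, known from melanin synthesis, fell by 2.38 (SE 0.286), Tedc2 by 1.76 (SE 0.149) and Ttc39c by 1.65 (SE 0.136). The pseudogene symbols Serpina4-ps1 and Adh6-ps1 fell by 2.30 (SE 0.381) and 1.94 (SE 0.242), and probes of a pseudogene can share sequence with its parent gene. In 10 of the 20 largest falls Rab5 siRNA 1 was the array nearest to controls.

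A pair of the 20 falls rested on uneven controls. Moxd1, related to the monooxygenase that makes noradrenaline, read 7.92, 7.65, 4.56 and 5.62 in controls and 3.39 to 3.97 after Rab5 siRNA, and its difference of -2.74 ran from -3.36 to -2.25 as single arrays were left out. Hspa1b, an inducible Hsp70 chaperone, read 11.85, 9.21, 8.78 and 9.63 against 8.02, 8.42, 7.90 and 8.39. Its difference of -1.69 (limma adjusted p = 0.0274) was -1.03 without control siRNA 1, and its adjusted p was 0.0826 without Rab5 siRNA 3. The PBS arrays read 4.42 and 6.51 for Moxd1 and 9.18 and 8.55 for Hspa1b, inside or below the control range.

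**Figure D2:**
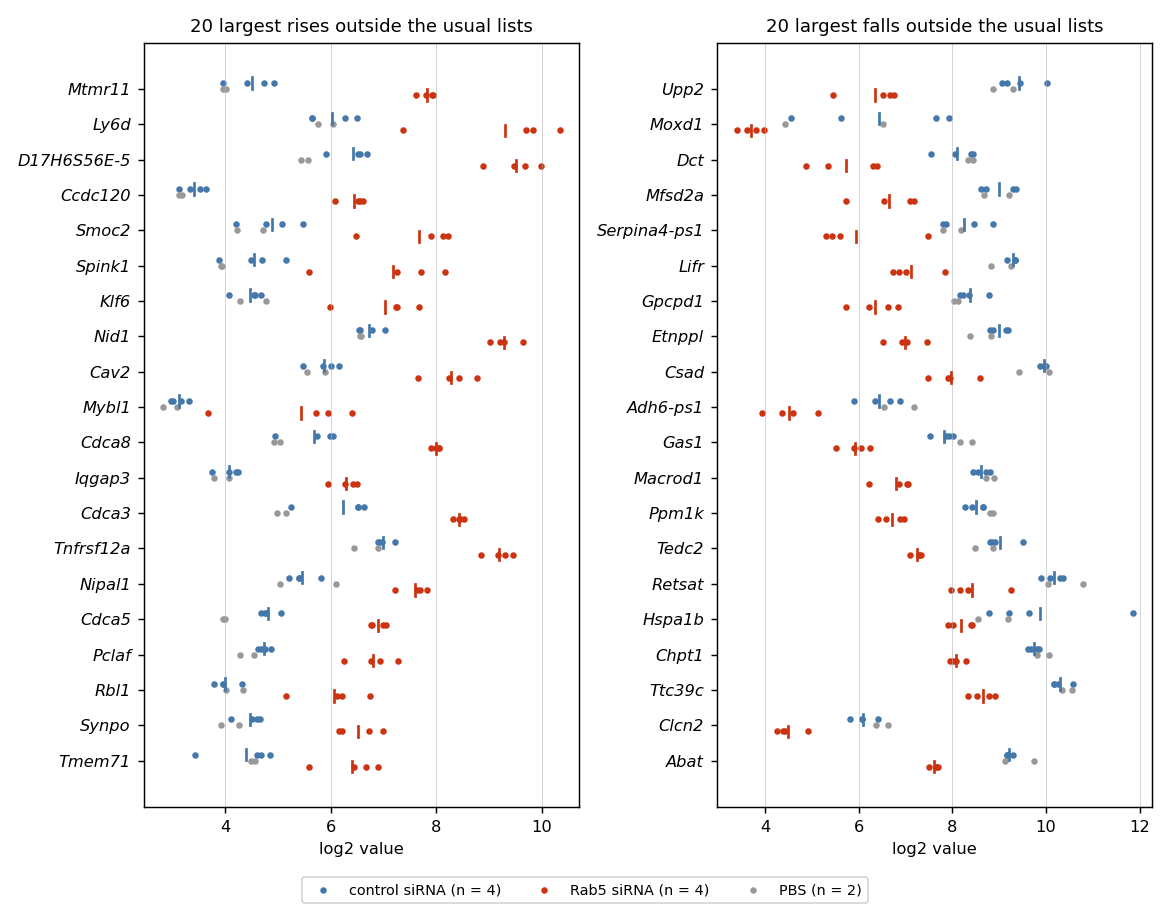
The log2 value of every array (control siRNA n = 4, Rab5 siRNA n = 4, PBS n = 2) for the 20 largest rises and 20 largest falls outside the usual lists. Control and Rab5 siRNA points do not overlap for any of the 40 genes, as the choice required, and Rab5 siRNA 1 is the array nearest to controls in 16 of the rises and 10 of the falls.

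Families of genes were then read by their counts, set beside the 14.6% called among all genes. Brighter genes were called more often, 20.3% above the table median and 25.8% above its 75th percentile, so bright families are best read beside those shares. Counts use the brightest probe set of each gene, and some families with 0 falls had 1 or 2 by the most variable probe set. Many families have members in several cell types. Of 29 immediate early and stress transcription factors 7 rose and 0 fell. Jun, a subunit of AP-1, read 6.24, 5.73, 7.67 and 6.74 in controls and 8.05, 8.03, 8.36 and 8.07 after Rab5 siRNA (difference 1.53, SE 0.281, limma adjusted p = 0.00197). Egr1 read 8.18, 8.61, 9.49 and 8.21 against 10.04, 11.10, 10.65 and 9.56, close to the highest control, and PBS 1 at 10.40 lay within the Rab5 siRNA range. The 4 Rab5 siRNA values of Jun were closely grouped and its controls were spread, while Egr1 was spread in all groups and its call ended without the arrays numbered 2 (limma adjusted p = 0.0704). Of 32 nuclear receptors 2 rose and 4 fell, and 8 fell when dim probe sets were filtered out. Ppara, the fatty acid sensor of liver, read 9.26, 9.17, 9.02 and 8.97 against 8.35, 7.82, 8.27 and 8.07, and Rarb, a retinoic acid receptor that retinoic acid itself raises, went the other way by 0.96 (SE 0.140). Among 305 zinc finger genes with a Zfp number only 3.93% were called, 6 in each direction, and their median level was 4.62. Of 14 STAT and IRF factors 0 were called, with Stat5b at -0.30 (limma adjusted p = 0.134) and Irf2 at -0.25 (limma adjusted p = 0.267). Of 30 Mediator subunits 5 rose and 0 fell, led by Med21 at 1.16 (SE 0.182) and Med9 at 0.71 (SE 0.105).

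Chromatin and DNA repair families were called about as often as all genes, and some of their largest changes were in genes used when DNA is copied. Uhrf1, which brings the maintenance methylase to newly copied DNA, read 3.21, 3.78, 3.59 and 3.56 in controls and 5.90, 6.17, 6.11 and 6.14 after Rab5 siRNA, a rise of 5.84-fold (SE 0.123 on the log2 scale, limma adjusted p = 3.41e-08). Dnmt1, that methylase, rose by 0.46 (SE 0.098), and the DNA methylation family had 3 of 14 up and 0 down. Of 37 DNA repair genes 6 rose and 0 fell, among them the DNA ligase Lig1 at 1.24 (SE 0.115) and the checkpoint kinase Chek1 at 1.24 (SE 0.187), 0 of whose 4 other probe sets were called. Of 49 centrosome genes 7 rose and 1 fell, with Cep55, needed for the final cut between daughter cells, at 2.40 (SE 0.300) and Plk4, which starts centriole copying, at 1.52 (SE 0.200). Of 75 histone-modifying enzymes 7 rose and 2 fell (12%). Ezh2, the Polycomb methyltransferase, rose by 1.01 (SE 0.134) and Sirt3, the mitochondrial deacetylase, fell by 0.99 (SE 0.120). Of 15 histone genes 1 rose and 1 fell (13.33%): H2az1 rose by 0.91 (SE 0.150) and H2ac19 fell by 0.85 (SE 0.119).

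Families of RNA and protein making differed in their counts. Of 62 splicing factors 18 rose and 0 fell (29.03%), none by 2-fold, around a median difference of 0.21 and a median level of 8.35. That share was not far above the 25.8% called among all genes above the 75th percentile of signal. With the most variable probe set standing for a gene, 17 splicing factors rose and 1 fell. Prpf19, the core of a spliceosome activating complex, read 9.99, 10.19, 10.36 and 9.94 in controls and 11, 10.88, 10.94 and 10.88 after Rab5 siRNA, and Srsf2 rose by 0.74 (SE 0.113). Prpf19 did not overlap, though its groups were only 0.81 apart (SE 0.110). Of 58 translation factors and relatives 9 rose and 5 fell. Eif6, which keeps ribosomal subunits apart, rose by 0.78 (SE 0.115), the helicase gene Eif4a2 fell by 0.69 (SE 0.153; limma adjusted p = 0.0635 without the arrays numbered 2), and Eif2ak3, the PERK kinase that halts initiation under stress, rose by 0.86 (SE 0.157). Of 19 tRNA synthetases 4 rose and 1 fell, with Gars, for glycine, at 1.01 (SE 0.111) and Vars, for valine, at 0.54 (SE 0.101). Of 55 ribosome biogenesis factors 7 rose and 0 fell (12.73%), Gar1, a protein of RNA-modifying snoRNPs, by 0.86 (SE 0.106). Of 75 mitochondrial ribosomal proteins 3 rose and 3 fell (8.0%), around a median difference of -0.08. Dicer1, which cuts microRNA precursors, was the single call of 15 small RNA genes, at -0.43 (SE 0.0995), and that call ended without the arrays numbered 2 (limma adjusted p = 0.0945).

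Long non-coding RNAs on the array moved in both directions, 2 up and 2 down of 21 in the list. Dleu2, the host of a pair of microRNA genes, read 6.49, 6.71, 6.49 and 6.57 in controls and 4.67, 4.86, 5.35 and 5.31 after Rab5 siRNA (difference -1.52, SE 0.143, limma adjusted p = 6.77e-06). Neat1, the scaffold of nuclear paraspeckles, read 7.64, 7.72, 7.28 and 7.63 against 8.37, 9.02, 8.93 and 9.16 (difference 1.30, SE 0.153, limma adjusted p = 4.69e-05). A dimmer Neat1 probe set was not called (difference -0.15, limma adjusted p = 0.453), and the gap between them was 1.45 (SE 0.194, limma adjusted p = 0.00101). Snhg3, a snoRNA host, rose by 1.19 (SE 0.182). In the brightest probe set of each, the control and Rab5 siRNA values stood apart. With the most variable probe set standing for a gene, the list had 5 up and 3 down.

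Chaperone and ubiquitin families were mostly called about as often as all genes. Of 74 heat shock and J proteins 5 rose and 6 fell (14.86%), and Dnajc10, a disulfide reductase of the endoplasmic reticulum, rose by 0.93 (SE 0.165). Of 14 chaperonin and prefoldin subunits, which fold tubulin and actin, 3 rose and 0 fell, with Pfdn4 at 0.86 (SE 0.174; limma adjusted p = 0.0504 without the arrays numbered 2) and Pfdn1 at 0.60 (SE 0.099). Of 58 tripartite motif genes, mostly ubiquitin ligases, 10 rose and 1 fell, such as Trim59 at 1.40 (SE 0.209) and Trim47 at 0.88 (SE 0.114). Of 107 F-box, Kelch-like and cullin genes 4 rose and 9 fell (12.15%). Fbxo31 fell by 1.37 (SE 0.189), while Fbxo5, the mitotic inhibitor of the anaphase-promoting complex, and Fbxo6, which binds glycoproteins, rose by 1.08 (SE 0.118) and 1.01 (SE 0.104). Otud1 read 4.73, 4.90, 5.32 and 5.46 in controls and 5.93, 6.99, 7.21 and 7.15 after Rab5 siRNA, and Usp20 rose by 0.66 (SE 0.119), both being deubiquitinases. Of 58 ubiquitin-specific proteases 5 rose and 2 fell (12.07%).

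Motor and filament genes were counted in 4 families, which had rises and 0 falls by the brightest probe set. By the most variable probe set 2 kinesins and 1 myosin fell. Of 40 kinesins 10 rose, with the mitotic motors Kif22 at 1.97 (SE 0.147) and Kif11 at 1.90 (SE 0.179). Of 50 myosins 8 rose, among them both regulatory light chains of non-muscle myosin. Myl12b read 10.30, 10.23, 10.51 and 10.45 in controls and 11.50, 11.82, 11.91 and 11.75 after Rab5 siRNA, Myl12a rose by 1.28 (SE 0.094), and the heavy chain gene Myh10 rose by 1.26 (SE 0.155). Of 12 septins 3 rose, Septin11 by 0.66 (SE 0.138). Of 19 dyneins and dynactins 2 rose (10.53%, below the share of all genes), and Dynll1, a light chain shared by dynein and other complexes, rose by 1.23 (SE 0.113).

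Rises among surface proteins were seen in arrays in which the macrophage markers were higher too, and the part of those cells in these values was not tested. Of 29 genes in the integrin list 5 rose and 0 fell. Among the rises was Itgb3bp, which is not an integrin and was taken in by its name. Its groups overlapped (difference 0.61, limma adjusted p = 0.049), and its call ended when any 1 of 5 arrays was left out. Itgb2, the common chain of white cell integrins, rose by 0.67 (SE 0.125), and Itga6, a laminin receptor chain, by 1.13 (SE 0.156). Of 25 tetraspanins 5 rose and 0 fell. By the most variable probe set 1 tetraspanin and 1 gene of the integrin list fell. Cd9 read 7.01, 7.64, 7.80 and 7.63 in controls and 8.77, 8.93, 8.96 and 9.22 after Rab5 siRNA, and Cd151 rose by 0.67 (SE 0.106). Of 22 genes in the list of S100 proteins and galectins 4 rose and 1 fell. Lgals3bp, 1 of the rises at 0.88 (SE 0.096), is not a galectin and was taken in by its name. Lgals3, a galectin abundant in macrophages, read 7.25, 7.40, 7.48 and 7.21 against 8.78, 9.02, 9.07 and 9.0. All 4 Rab5 siRNA values of Lgals3 lay above the highest control. The macrophage marker mean was 0.21 above the control mean in Rab5 siRNA 1 and 0.73 to 0.77 above it in the other 3 arrays. S100a10, the partner of annexin A2, rose by 0.89 (SE 0.141), Ly6e by 0.90 (SE 0.177) and Cdh1, the adherens junction cadherin of epithelium, by 1.02 (SE 0.116). Their families were called less often than all genes by count, with 2 up and 0 down of 19 Ly6 genes (10.53%) and 3 up and 2 down of 64 cadherins (7.812%). Efnb2 fell by 0.50 (SE 0.098) and the ephrin receptor gene Epha1 rose by 0.68 (SE 0.137), among 2 rises and 3 falls of 53 ephrins, semaphorins and their receptors (9.434%). Of 65 matrix proteases and inhibitors 2 rose and 0 fell (3.077%).

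Serpins, not all of them secreted, moved both ways. Of 39 serpins 4 rose and 3 fell (17.95%, beside 14.6% of all genes). Serpina6, the corticosteroid-binding globulin made by hepatocytes, read 9.38, 9.43, 9.53 and 9.26 in controls and 7.57, 7.02, 6.93 and 5.53 after Rab5 siRNA, a 6.23-fold fall (SE 0.293 on the log2 scale, limma adjusted p = 2.76e-05). Serpinb6a, an intracellular protease inhibitor, read 7.45, 7.57, 7.38 and 7.32 against 8.07, 9.03, 9.08 and 9.30. Both changed least in Rab5 siRNA 1. Mup10, a major urinary protein that male mice make, read 8.45, 8.61, 7.18 and 8.19 against 6.12, 6.79, 6.44 and 6.33. Major urinary protein genes are nearly identical, so its probes may read several of them.

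Signalling families had changes among ligands, receptors and their targets. Of 29 genes of the Hippo pathway and its targets 6 rose and 2 fell. Ajuba, an adaptor that restrains the Hippo kinases, read 5.68, 5.91, 6.63 and 6.18 in controls and 7.80, 8.02, 8.30 and 8.21 after Rab5 siRNA (difference 1.99, SE 0.201, limma adjusted p = 1.23e-05). Amot, which holds YAP at junctions, rose by 1.10 (SE 0.127) and Tead1, the DNA-binding partner of YAP, by 0.77 (SE 0.126). Of 26 Notch genes 5 rose and 2 fell, with the receptor Notch2 at 0.58 (SE 0.135; limma adjusted p = 0.0535 without the arrays numbered 2), its target Hes1 at 0.71 (SE 0.146) and Hes6, which counteracts Hes1, at -1.02 (SE 0.121). Of 41 FGF, VEGF and PDGF ligands and receptors 3 rose and 4 fell. Pdgfa, a growth factor ligand, read 6.26, 6.49, 6.52 and 6.41 against 8.19, 8.11, 8.50 and 7.86, and Pdgfc rose by 1.45 (SE 0.191). Klb, the co-receptor with which hepatocytes bind FGF15, fell from 7.31, 7.46, 7.86 and 7.79 to 6.6, 6.59, 6.31 and 6.40. No value of Pdgfa or Klb crossed into the other group. Of 46 genes in the TGF-beta and BMP list 3 rose and 2 fell (10.87%), with the target Id1 at 0.98 (SE 0.191), the receptor Tgfbr2 at 0.65 (SE 0.118) and Inhbc, an activin subunit of liver, at -0.48 (SE 0.145), a call that ended when any 1 of 7 arrays was left out.

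The list of dual-specificity phosphatases, with feedback phosphatases of MAP kinases, and Sprouty proteins had 7 rises and 0 falls of 31 (22.58%). That share stood beside 14.6% of all genes and 20.3% of those above the table median. Dusp10, Dusp16 and Dusp8 rose by 1.10 (SE 0.207), 0.94 (SE 0.153) and 0.94 (SE 0.121). Of 51 chemokines and receptors 3 rose and 4 fell. Ccl9, a chemokine of myeloid cells, read 9.59, 9.77, 9.70 and 9.63 in controls and 11.06, 11.11, 10.95 and 11.24 after Rab5 siRNA, while Cxcl9, induced by interferon gamma, fell by 0.81 (SE 0.179). Of 63 interleukins and receptors 4 rose and 4 fell, with Il1rap at -0.96 (SE 0.143), Il15ra at -0.91 (SE 0.106) and Il18bp, the decoy of interleukin 18, at 0.76 (SE 0.106). Of 27 Toll-like receptors and nucleic acid sensors 6 rose and 3 fell. Zbp1 and Ddx58, sensors of nucleic acid in the cytosol, rose by 0.91 (SE 0.146) and 0.69 (SE 0.121), and Irak3, a brake on Toll signalling, fell by 0.65 (SE 0.118). Of 21 NF-kappaB genes the inhibitor Tnip1 was the single call at 0.61 (SE 0.102), with Rela at 0.29 (limma adjusted p = 0.161). Of 108 other G protein-coupled receptors 3 rose and 3 fell, with S1pr3 at 0.98 (SE 0.120), the vasopressin receptor Avpr1a at 0.63 (SE 0.147; limma adjusted p = 0.0564 without the arrays numbered 2) and the Wnt receptor Fzd8 at -0.61 (SE 0.110). Of 39 olfactory receptors, a family not known for use in liver, 0 were called at a median level of 3.13.

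Among membrane traffic genes, the lists of COPI, COPII and SNARE proteins and of Arf GTPases changed modestly. Of 86 genes in the list of COPI, COPII and SNARE proteins 10 rose and 7 fell (19.77%), none by 2-fold. That share was close to the 20.3% called among all genes above the table median. Of 21 Arf and Arl GTPases 3 rose and 1 fell (19.05%). Copg1, a COPI coat subunit, rose by 0.71 (SE 0.106), the SNARE gene Sec22c fell by 0.61 (SE 0.102), and Sec14l2, a lipid-binding protein taken in by its name, fell by 0.72 (SE 0.110). Arf6, a GTPase of the plasma membrane and recycling endosome, rose by 0.69 (SE 0.096), and Arf3 of the Golgi by 0.62 (SE 0.104).

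Transporter families ranged widely in the share called. Of 359 solute carriers 31 rose and 49 fell (22.28%). Slc1a2, a glutamate carrier, read 8.36, 8.38, 8.31 and 8.16 in controls and 6.31, 5.55, 6.17 and 5.74 after Rab5 siRNA (difference -2.36, SE 0.147, limma adjusted p = 1.95e-07). Slc1a4, a carrier of small neutral amino acids, went the other way, from 4.92, 5.29, 5.39 and 5.03 to 6.6, 6.92, 7.16 and 6.91. These relatives thus changed in opposite directions, with no overlap in either. Slc16a5, of the monocarboxylate carriers, rose by 1.72 (SE 0.185). Of 45 ABC transporters 9 rose and 8 fell (37.78%), with Abca8b at 1.01 (SE 0.115), the drug pump Abcb1a, whose groups overlapped, at 1.00 (SE 0.208) and Abcg8, a subunit of the biliary sterol pump, at -0.99 (SE 0.126). Of 180 genes in the ion channel list 9 rose and 3 fell (6.667%), with the lipid scramblase Ano6 at 0.85 (SE 0.115) and Tmem165, a Golgi membrane protein, at 0.89 (SE 0.118). Of 33 P-type ATPases 3 rose and 0 fell (9.091%).

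The highest shares called were those of metabolic families. Of 27 nucleotide salvage and breakdown genes 6 rose and 7 fell (48.15%). Nt5e, the surface enzyme CD73 that makes adenosine, read 4.46, 4.88, 4.56 and 4.71 in controls and 5.97, 6.77, 6.50 and 7.26 after Rab5 siRNA. Another Nt5e probe set, brighter in controls, did not change, with group means of 5.43 and 5.44. The gap between these probe sets was 1.96 (SE 0.229, limma adjusted p = 3.97e-04), so the rise rests on the first of them. Dck, which phosphorylates deoxycytidine, rose by 1.42 (SE 0.138). Upp2, given above, led the falls. Of 24 purine and pyrimidine synthesis genes 4 rose and 4 fell, with Ctps2, which makes CTP, at 1.23 (SE 0.124) and Paics, of purine synthesis, at -0.48 (SE 0.117). Of 20 genes of tryptophan breakdown and NAD synthesis 0 rose and 7 fell (35%). Their median level was 8.70, so that share was near that of the brightest 10% of probe sets. Nnmt, which methylates nicotinamide, read 11.03, 10.66, 10.70 and 10.41 against 7.84, 8.90, 9.20 and 9.08, and here Rab5 siRNA 1 was the lowest array. Haao and Kynu, consecutive parts of the kynurenine route, fell by 1.15 (SE 0.128) and 1.06 (SE 0.099).

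Steroid, aldehyde and carbonate enzymes fell more often than they rose. Of 18 hydroxysteroid dehydrogenases 2 rose and 6 fell. Hsd3b5, a male-biased liver enzyme, read 10.64, 10.47, 10.41 and 11.04 in controls and 9.36, 6.40, 7.22 and 6.07 after Rab5 siRNA, a 10.4-fold fall (difference -3.37, SE 0.490, limma adjusted p = 2.85e-04). Rab5 siRNA 1 fell least, and without it the difference was -4.07. Hsd3b2 fell by 1.38 (SE 0.111) and Hsd17b7, which also serves cholesterol synthesis, rose by 1.02 (SE 0.134). Of 34 aldo-keto reductases and aldehyde dehydrogenases 2 rose and 10 fell. The 2 that rose were Aldh18a1, the first enzyme of proline synthesis, at 1.91 (SE 0.186) and Akr1c18, a progesterone-inactivating enzyme, at 1.06 (SE 0.183). Other Aldh18a1 probe sets also rose, by 1.04 and 0.59, while those at 0.27 and 0.21 were not called. Of 16 carbonic anhydrases 0 rose and 4 fell. Car3, an abundant cytosolic form, read 13.27, 13.12, 12.90 and 13.23 against 12.49, 11.85, 11.35 and 11.05, the mitochondrial Car5a fell by 1.28 (SE 0.136), and Car1, which red cells also make, by 1.24 (SE 0.153). Of 5 erythroid markers 1 fell, over mean levels of 4.83 to 5.20 in controls and 4.49 to 4.76 after Rab5 siRNA, and the part of red cells in Car1 was not tested.

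The promoters of Hsd3b5 and Ppm1k are shown for the falls, because each holds CAAAGT, the core of a site for the hepatocyte factor HNF4. The windows have the same length and build, and capitals mark that core as it reads on the printed strand, ACTTTG, at -41 in Hsd3b5 and -164 in Ppm1k. Hsd3b5 lies on the minus strand at chr3:98645505-98645784 and Ppm1k on the minus strand at chr6:57535458-57535737. Both were chosen because they hold the letters, which are not particular to falls: the Cdca5 window above, from a gene that rose, holds caaagt too.
Hsd3b5: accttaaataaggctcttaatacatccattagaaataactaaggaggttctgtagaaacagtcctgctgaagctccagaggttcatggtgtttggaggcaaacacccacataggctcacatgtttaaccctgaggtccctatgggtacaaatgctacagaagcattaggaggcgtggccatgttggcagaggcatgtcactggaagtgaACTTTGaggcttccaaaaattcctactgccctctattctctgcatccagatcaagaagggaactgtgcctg
Ppm1k: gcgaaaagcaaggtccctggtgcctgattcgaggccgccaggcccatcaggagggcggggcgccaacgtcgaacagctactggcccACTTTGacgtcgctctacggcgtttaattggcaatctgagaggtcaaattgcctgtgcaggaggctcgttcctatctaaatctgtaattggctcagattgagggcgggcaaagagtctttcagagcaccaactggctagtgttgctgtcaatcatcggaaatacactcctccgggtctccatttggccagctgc

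Lipid, retinoid and selenium families were mixed. Chka, which phosphorylates choline at the start of the route that Chpt1 ends, read 6.41, 6.18, 6.29 and 6.36 in controls and 7.66, 7.72, 7.83 and 8.02 after Rab5 siRNA (difference 1.50, SE 0.104, limma adjusted p = 4.73e-07), so that the first enzyme rose and the last fell. Of 34 phospholipid genes 5 rose and 3 fell. Of 29 sphingolipid genes 4 rose and 2 fell, with Sptlc2, in the first step of synthesis, at 1.23 (SE 0.140), the ceramidase Asah1 at 0.74 (SE 0.144) and the kinase Sphk2 at -0.80 (SE 0.117). Of 27 retinoid genes 3 rose and 6 fell. Cyp26a1, which clears retinoic acid and is raised by it, fell from 5.53, 4.89, 5.82 and 5.48 to 4.23, 4.15, 3.91 and 3.50, and Rdh9 rose by 1.24 (SE 0.152). Of 20 selenoproteins 4 rose and 5 fell (45%), with Dio1, the thyroid hormone deiodinase of liver, at -1.39 (SE 0.147), Txnrd1 at 0.75 (SE 0.116) and Msrb1 at -0.60 (SE 0.111). Sat1, which acetylates polyamines, rose by 0.82 (SE 0.137).

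Hypoxia-responsive genes did not move as a block, with 3 up and 2 down of 23. Ndrg1 rose by 1.14 (SE 0.129), while Egln3 and Bnip3 fell by 0.77 (SE 0.123) and 0.60 (SE 0.104). Of 27 imprinted genes 3 rose and 1 fell, with Phlda2 at 1.18 (SE 0.177) and Sgce at 0.89 (SE 0.200; limma adjusted p = 0.0722 without the arrays numbered 2). Of 484 genes known only by a Fam, Tmem or Ccdc number 40 rose and 23 fell (13.02%), and Ccdc34 at 1.36 (SE 0.128) followed Ccdc120 and Tmem71.

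**Figure D3:**
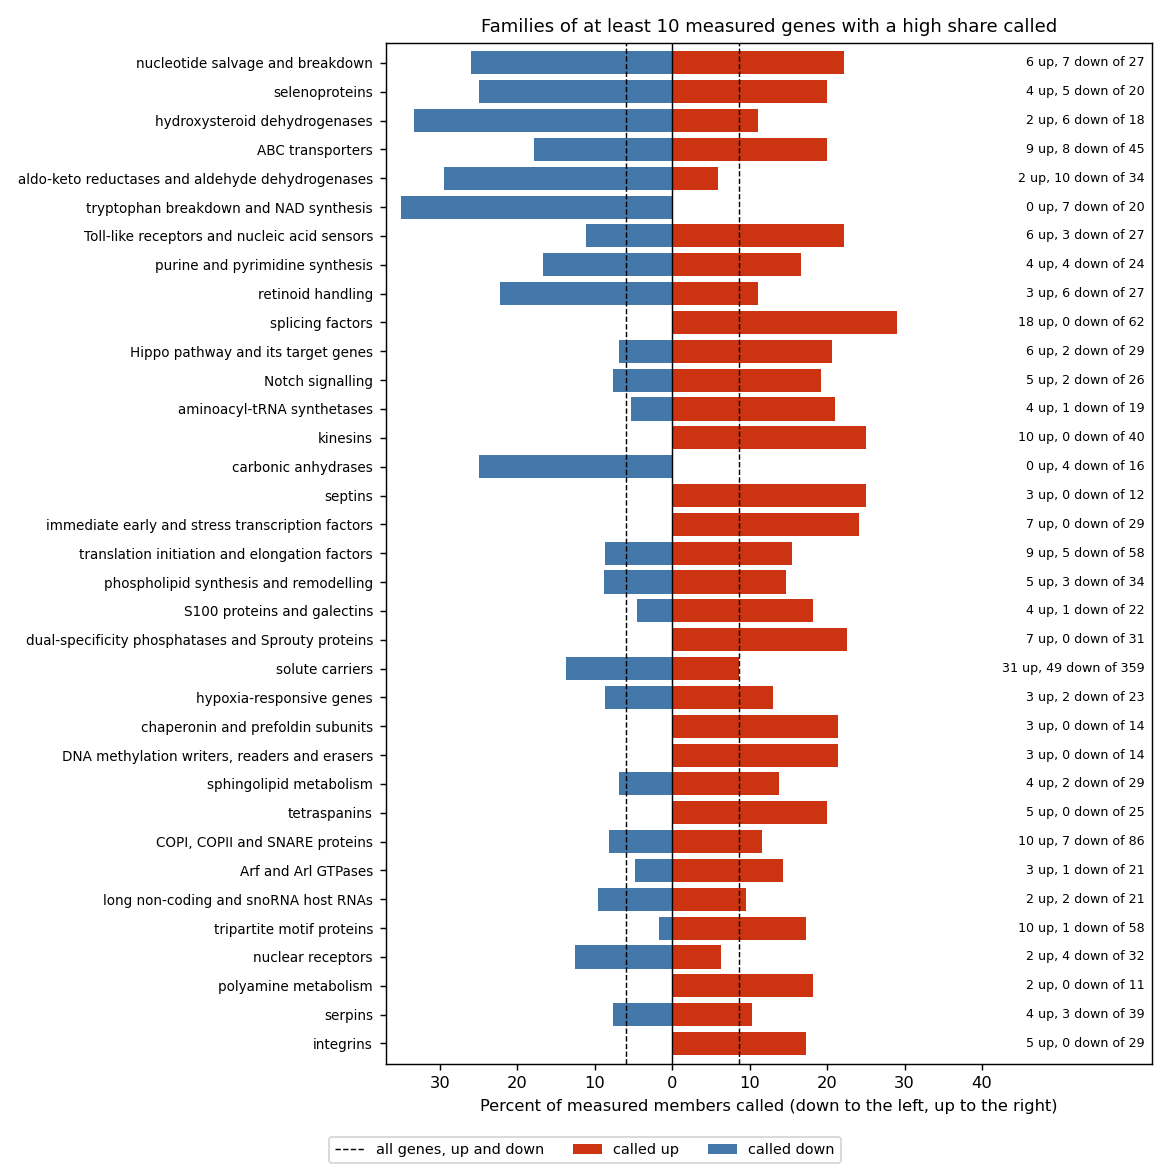
Percent of the measured members of a family called down (left) and up (right), for 35 families of at least 10 measured genes with a high share called. Dashed lines stand at the shares over all genes, 6.0% down and 8.62% up. Among genes above the table median 20.3% were called in all, so bright families have a higher share to be read against. Nucleotide salvage, selenoproteins and hydroxysteroid dehydrogenases have over 44% of members called, splicing factors and kinesins have bars to the right alone, and tryptophan breakdown to the left alone.

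How often a probe set was called followed its signal. In the dimmest 10% of probe sets 0.644% were called and in the brightest 10% 32.93%. The median SE was alike in both (0.109 and 0.113), whereas the median size of the difference was 0.082 and 0.254. Annotation went with signal. Of 9160 probe sets with no symbol 161 rose and 253 fell (4.52%), at a median level of 3.37, and of 932 probe sets with several symbols 98 rose and 53 fell (16.2%). Restricted to means above the table median, the shares were 13.25% with no symbol, 24.3% with several and 19.65% with 1, against 12.5% of all probe sets with 1 symbol. Falls outnumbered rises in the unnamed class there too, 161 to 132, while they were fewer among probe sets with 1 symbol, 1601 to 2265. Genes of RefSeq's lncRNA type had 15 rises and 50 falls of 1355 (4.80%), against 1546 and 1026 of 16468 protein-coding genes (15.62%), at median levels of 3.50 and 5.65.

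Some probe sets without a gene changed as much as the named genes did. Probe set 1448205_at read 6.35, 6.83, 6.42 and 5.64 in controls and 8.36, 8.80, 8.23 and 8.96 after Rab5 siRNA, and 1424744_at read 10.67, 10.50, 10.76 and 10.39 against 8.66, 8.48, 8.35 and 8.25. Both stood well apart from their controls, and 1424744_at was bright in every control array. The other two of the unnamed leaders were 1416076_at, up by 2.07 (SE 0.238), and 1441430_at, down by 2.20 (SE 0.230). Of probe sets with several symbols, that of Gsta1, Gsta2 and Gm3776, glutathione transferases of the alpha class, rose by 2.65 (SE 0.259). That of S100a11 and its pseudogenes rose by 2.31 (SE 0.243), that of Cyp4a10 and Cyp4a31 fell by 2.33 (SE 0.363), and that of Paqr9 and C730029A08Rik fell by 1.92 (SE 0.219), and none of these can be given to a single gene.

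Transcripts with clone names added a few clear changes, 26 up and 66 down of 1852 such symbols (4.97%, median level 3.57). 1700001C19Rik read 6.45, 6.62, 6.90 and 6.89 in controls and 5.58, 5.06, 5.51 and 4.64 after Rab5 siRNA. 0610005C13Rik read 9.36, 9.16, 9.33 and 9.32 against 8.47, 8.25, 8.29 and 7.83. Both had every Rab5 siRNA value below every control. Gm2788 fell by 1.47 (SE 0.228), and the rises were led by 2900009J06Rik at 1.16 (SE 0.169), 4930579G24Rik at 1.15 (SE 0.130) and BC029722 at 0.92 (SE 0.118).

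**Figure D4:**
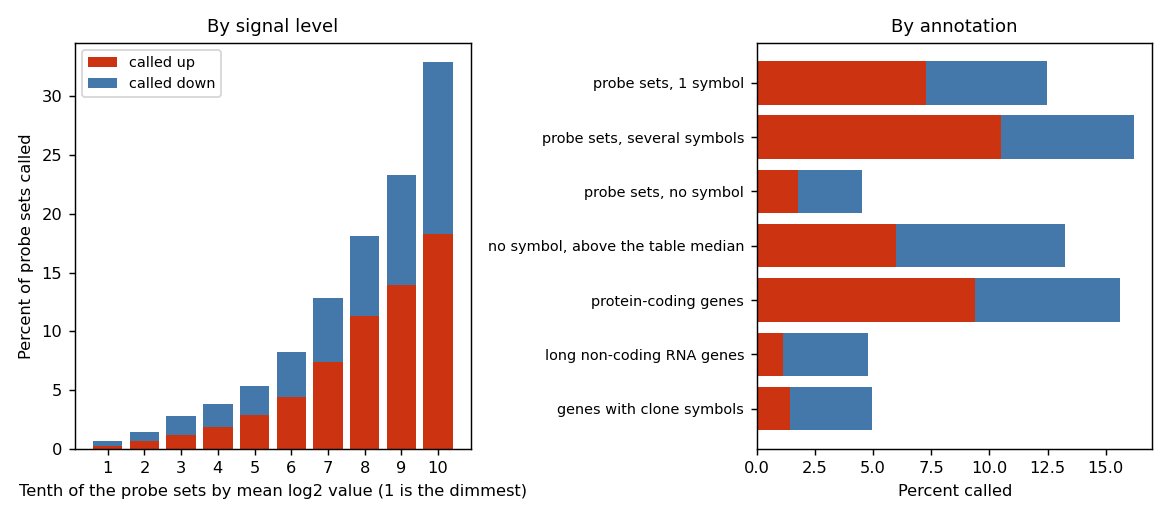
Left, percent of probe sets called up and down in 10 equal groups by mean log2 value, rising from 0.644% to 32.93%. Right, the same by annotation of the probe set or gene, where probe sets with no symbol (4.52%) and lncRNA genes (4.80%) have the shortest bars.

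Probe sets of 1 gene did not always change alike. The test was made on the difference between the gene's brightest probe set and another one within each array, and 792 of 7452 pairs (10.6%), from 675 of 4774 genes, passed, 98 of them by at least 2-fold. Without Rab5 siRNA 2 the count was 496. Tubb6, a beta tubulin, gave the largest one, with its brightest probe set up from 6.81 to 9.23 (group means, n = 4 each) and another from 4.72 to 4.46, a gap of 2.70 (SE 0.187, limma adjusted p = 2.05e-05). Cav2 had a gap of 2.69 (SE 0.202) and Top2a, the topoisomerase of dividing cells, one of 2.14 (SE 0.214), and in each a dimmer probe set was not called. For Kif2c and Psrc1, proteins of spindle microtubules, the brighter probe set was the one not called. It read 4.94 and 5.28 for Kif2c while another rose from 3.98 to 6.55. For Psrc1 it read 5.85 and 5.78 while another rose from 4.16 to 6.30. A count by the brightest probe set thus leaves out these rises. Further probe sets of Kif2c, at 5.11 and 3.54 in controls, were not called either, nor was a dim Psrc1 probe set at 2.62. Slc1a2 had a gap of -2.29 (SE 0.156) between its brightest probe set and 1 that was not called, and 2 other probe sets of it fell.

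Opposite calls within a gene were found for 23 of the 770 genes with at least 2 called probe sets. Parva, a link between integrins and actin, rose from 5.47 to 6.29 by 1 probe set and fell from 7.21 to 6.76 by the other. Bbip1, of the ciliary BBSome, rose from 6.27 to 7.04 and fell from 7.73 to 7.16. Further opposite calls were those of Lcorl (0.82 and -0.73), Rabgap1l (1.11 and -0.57), Prmt6 (0.45 and -0.50) and Pck1, the gluconeogenic enzyme, with a dim probe set at 0.56 and another at -1.16. Without the arrays numbered 2, the calls of the brightest probe sets of Parva, Rabgap1l and Prmt6 ended (limma adjusted p = 0.0968, 0.0566 and 0.0902). Which transcript each probe set reads was not analysed here.

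Neighbouring genes rarely moved as a row. Along the RefSeq gene order, 1 run of at least 4 neighbouring genes of the table changed in 1 direction, the glutathione transferases Gstm3 (2.31), Gstm2 (1.53), Gstm1 (0.66) and Gstm4 (0.44) on chromosome 3. These genes are close relatives and their probes may cross-read. By chromosome, the share called ran from 13.16% to 16.75% on the autosomes and was 10.7% on X, where 55 genes rose and 11 fell of 617.

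A smaller set could be placed as steady. For 1176 genes (6.46%) the 95% interval of the difference lay within 0.25 of 0 on either side. Above the 75th percentile of signal these were 364 of 7201 genes (5.05%), where 25.8% were called. Alb, albumin, read 14.08, 14.03, 14.05 and 14.08 in controls and 14.11, 14.10, 14.08 and 14.14 after Rab5 siRNA. Serpina1b, an antitrypsin gene, read 13.89, 13.82, 13.80 and 13.83 against 13.84, 13.77, 13.77 and 13.81. The values are near the top of the scale, at most 14.48 on any array, and saturation was not tested. Gstp1 (0.00), Apoc3 (0.01), Selenop (0.04) and Cox6a1 (-0.02) had differences as small.

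Promoters were read for 14368 genes with a RefSeq window of 250 bases before to 50 after the start, 262 of them called and at least 2-fold up and 132 at least 2-fold down. Letters were searched on both strands, and a match describes the sequence and not binding. TTTGAA stood in 13.3% of all promoters, 26.0% of the 2-fold rises and 13.6% of the 2-fold falls. Outside the usual lists, which hold many cell cycle genes, the 144 rises had 18.1%. CCAAT stood in 38.2% of all, 51.1% of the rises and 47.7% of the falls. CAAAGT stood in 12.7% of all, 10.7% of the rises and 22.0% of the falls, and in 18.1% of the 72 falls outside the usual lists. The C/EBP letters TTGCNNAA and the TATA core TATAAA each stood in 15.2% of the falls, against 9.03% and 9.86% of all. The median number of CG pairs in a window was 17 over all, 20 in the 2-fold rises and 10 in the 2-fold falls. It was 21 over all genes called up and 17 over all called down. CG-poor promoters belonged to dimmer genes. From the 20% of promoters poorest in CG to the 20% richest, the share of genes called up went from 4.81% to 11.9%. The share called at least 2-fold up went from 0.98% to 1.97%. The share called down had no such trend, at 6.07% and 5.61% with a highest value of 7.15% between them. Only that called at least 2-fold down fell, from 1.49% to 0.464%. Median levels in the poorest and richest groups were 4.02 and 6.41.

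**Figure D5:**
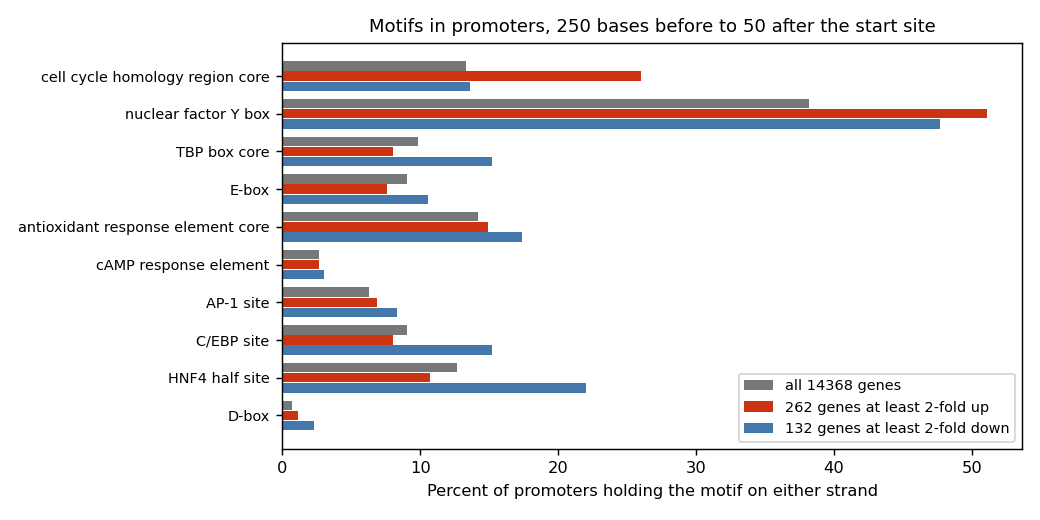
Percent of promoters holding each motif on either strand, for all genes, genes called at least 2-fold up (262) and at least 2-fold down (132). The cell cycle homology core is held by 26.0% of the 2-fold rises against 13.3% of all, and the HNF4 letters CAAAGT by 22.0% of the 2-fold falls against 12.7% of all. Over all genes called up and all called down, not drawn, these shares were 14.6% and 15.7%.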

How the data were processed

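Total RNA of 10 livers was measured on Affymetrix Mouse Genome 430 2.0 arrays. The deposited values are log2 signals per probe set. Per the submitters' processing notes, which give no order, Affymetrix Expression Console, RMA and Partek 6.6 were used. No genome build or detection call is given in the sources used here. All 45037 probe sets, unfiltered, were fitted with limma 3.58.1 (R 4.3.3), a mean per group over all 10 arrays, and Benjamini-Hochberg adjustment. An adjusted p is limma's, 2-sided, and called means under 0.05. Intervals are 95%. Symbols came from the platform annotation (34945 probe sets with 1 symbol, 932 with several, 9160 with none), and 34741 of the first had their Entrez identifier in the RefSeq table of GRCm38.p6, which also gave promoters.

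Named genes were the Rab5 genes, the 10 largest called changes without overlap each way, the next by the same rule outside the usual lists up to 20 each way, up to 3 called members per family (74 families), the leading clone-named and unnamed probe sets, pairs of probe sets that differed most, genes low in 1 group and high in the other, runs of neighbours and the brightest steady genes. The text prints a part of them. Members and lists were chosen with earlier results of these data known. The usual lists hold genes of Rab5, endosomes and lysosomes, metabolism, cell cycle, stress, plasma proteins, the clock, cytoskeleton, other cell types and large complexes. Families were counted and not tested, and 1 is not reported here. The fit was tested on simulated data. Alternatives were another filter, normalization, prior, array weights, 8 arrays, a replicate block and each array left out.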

Additional observations from a re-analysis of the deposited data

Results flagged for a closer look

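In groups of 4 arrays 1 value sometimes stood far from the other 3, and chance flags about 1 in 20 groups. The values below are log2 signals. Among control arrays, control siRNA 1 was lowest for Tmem71 (3.42) and Irf2 (7.57) and highest for Tedc2 (9.51). Control siRNA 2 was lowest for Med9 (5.93), Usp20 (4.80), Egln3 (7.01) and Selenop (13.47). Control siRNA 3 was highest for Lig1 (5.77), Hes6 (9.36) and Inhbc (7.45). Control siRNA 4 was lowest for Cdca3 (5.25) and Lifr (9.16) and highest for S1pr3 (6.18) and Paics (10.68). Among Rab5 siRNA arrays, the first was highest for Serpina4-ps1 (7.48) and lowest for Otud1 (5.93) and Dynll1 (10.74). Rab5 siRNA 2 was lowest for Dnmt1 (7.54) and Parva (6.64), Rab5 siRNA 3 highest for Jun (8.36), and Rab5 siRNA 4 lowest for Gar1 (7.77), Sec14l2 (9.31) and Car5a (6.16). For Cdca3, control siRNA 4 lay near the PBS arrays (4.98 and 5.15) while the other 3 controls lay between 6.51 and 6.62.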

How the results depend on the processing

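Counts of probe sets called, 2798 up and 2133 down, were 1687 and 1247 without the arrays numbered 2. With 1 probe set per gene after a filter on dim probe sets, 1771 rose and 1222 fell, 325 and 171 of them by 2-fold (fewer probe sets tested). Leaving out each array in turn gave 2146 to 3338 up, 1499 to 2283 down, 490 to 675 and 279 to 319 by 2-fold, and 56.1% to 59.5% of calls as rises. Median centring gave 62.6% and quantile normalization 53.3%, against 56.7%. The other fits (8 arrays, array weights, filter, intensity trend) stayed within 1.5 times, and all settings kept the median difference within 0.1 of 0. Pairs of probe sets called numbered 792, 496 to 881 with each array left out (496 without Rab5 siRNA 2), and 337 among brighter pairs (fewer tested). Counted over settings and printed genes other than Itgb3bp, 24 combinations ended a call, 9 of them for Inhbc, and 3468 kept the side of the threshold. Itgb3bp was not in that count, and its call ended when any 1 of 5 arrays was left out. Moxd1 had adjusted p = 0.0893 and Egr1 0.084 with an intensity trend, and Hspa1b 0.164. The calls of Eif4a2, Dicer1, Pfdn4, Notch2, Avpr1a, Sgce, Rabgap1l, Parva and Prmt6 ended without the arrays numbered 2. The cause was not tested. The replicate numbers were not used to pair the samples, since the labels do not tie them to a shared mouse or batch and deviations of same-numbered arrays correlated at 0.29, 0.06, 0.13 and 0.22. Numbers 1, 3 and 4 were closest to their own number and number 2 was not, which is a hint from the data only, and a shared batch was not tested. With a replicate block the calls were 3454 up and 2649 down, 549 and 292 by 2-fold, and 986 pairs. Signal over background limits dim genes, and 4 arrays a group limit the precision.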
